A study of Mus musculus with 2 samples.

Results

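The 5 miRNA genes Mir126a, Mir126b, Mir143, Mir145a and Mir145b, grouped by links to blood vessel cells, were followed in adult mouse hippocampus. Mir126a, with its antisense neighbour Mir126b, is linked to endothelial cells, and Mir143 and Mir145a are linked to smooth muscle cells and pericytes. Mir145b, a separate locus, was placed with Mir143 and Mir145a by its symbol. All 5 genes were picked by gene symbol, with earlier results of these data known, out of the 2202 miRNA genes in the tables. Small RNA had been sequenced from hippocampus of wild-type C57BL/6 mice (strain B6NCrl) at 6 months of age, with no treatment named in the labels, which call the tissue male while their sex field was not filled in. There were 2 libraries, biological replicates 2 and 1 of a single group according to the labels. They share a donor identifier and the labels do not say whether they came from different animals, so the difference between the libraries can be technical. Replicate 2 had 5041568 counts on miRNA genes out of 12627039 reads, and replicate 1 had 4247092 out of 11106392 reads. Levels are sense-strand counts in CPM (counts scaled to the counts on all miRNA genes). The tables hold miRNA genes only, so no protein-coding marker of endothelial or mural cells was measured, and the link of each gene to a cell type is background.

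In blood vessels, endothelial cells line the lumen, and mural cells (smooth muscle cells around arterioles, pericytes around capillaries) wrap that lining. miR-126 is made from an intron of Egfl7, which encodes a secreted endothelial protein, and it strengthens VEGF signalling by repressing the inhibitors Spred1 and Pik3r2. miR-143 and miR-145 are made from 1 primary transcript under control of serum response factor and myocardin, and they favour the contractile state of smooth muscle, with Klf4 among the targets of miR-145. miR-126 is also found in platelets and blood progenitors, and miR-143 and miR-145 occur in fibroblasts too.

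The sequences of the Mir126 pair are shown because its members lie over each other on opposite strands, which decides how their reads could be counted. In the mature sequences below (RefSeq, GRCm38.p6), the seed, bases 2 to 8, is in capitals. In the hairpins, the stretches of these 3 mature miRNAs are in capitals, and miR-126a-5p, from the other arm of Mir126a, is not marked.
miR-126a-3p: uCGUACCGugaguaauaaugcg
miR-126b-5p: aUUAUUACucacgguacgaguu
miR-126b-3p: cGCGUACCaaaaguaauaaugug
Mir126a hairpin: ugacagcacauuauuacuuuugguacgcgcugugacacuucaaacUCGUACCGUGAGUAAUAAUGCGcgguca
Mir126b hairpin: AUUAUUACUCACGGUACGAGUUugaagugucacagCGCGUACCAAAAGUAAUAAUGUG

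These 3 mature miRNAs have 3 different seeds. Each seed was found in 0 other entries among 1738 mature miRNAs of the RefSeq table, with chromosome 18 left out of the comparison. miR-126a-3p and miR-126b-5p, each 22 bases long, overlap by 19 genomic bases on opposite strands. Read 5′ to 3′, they share no stretch longer than 4 bases, and the 2 hairpins share none longer than 10 bases. The table held entries for 2 of the 5 genes.

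Mir126a (ENSMUSG00000065540.1) lies on the plus strand at chr2:26591357-26591429 (mm10). Mir126b (ENSMUSG00000105799.1), at chr2:26591363-26591420 on the minus strand, is the exact reverse complement of 58 of the 73 bases of Mir126a. Of 9 Egfl7 transcripts that span Mir126a, 8 have it in an intron, and 1, a retained-intron transcript, has it in an exon. The protein-coding gene Gm20532 also overlaps it on the same strand. Mir143 (ENSMUSG00000065445.3, chr18:61649196-61649258) and Mir145a (ENSMUSG00000065592.2, chr18:61647825-61647894) both lie on the minus strand, with 1301 bases between them. In the M21 annotation they overlap no other gene, and the noncoding gene Carmn ends 366 bases before Mir143. In the RefSeq annotation of the same build Carmn extends over both. Mir145b (ENSMUSG00000098366.1, chr18:69022199-69022273) is not opposite Mir145a: it lies on the same strand, 7.37 Mb away, and overlaps no other annotated gene.

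**Figure D1:**
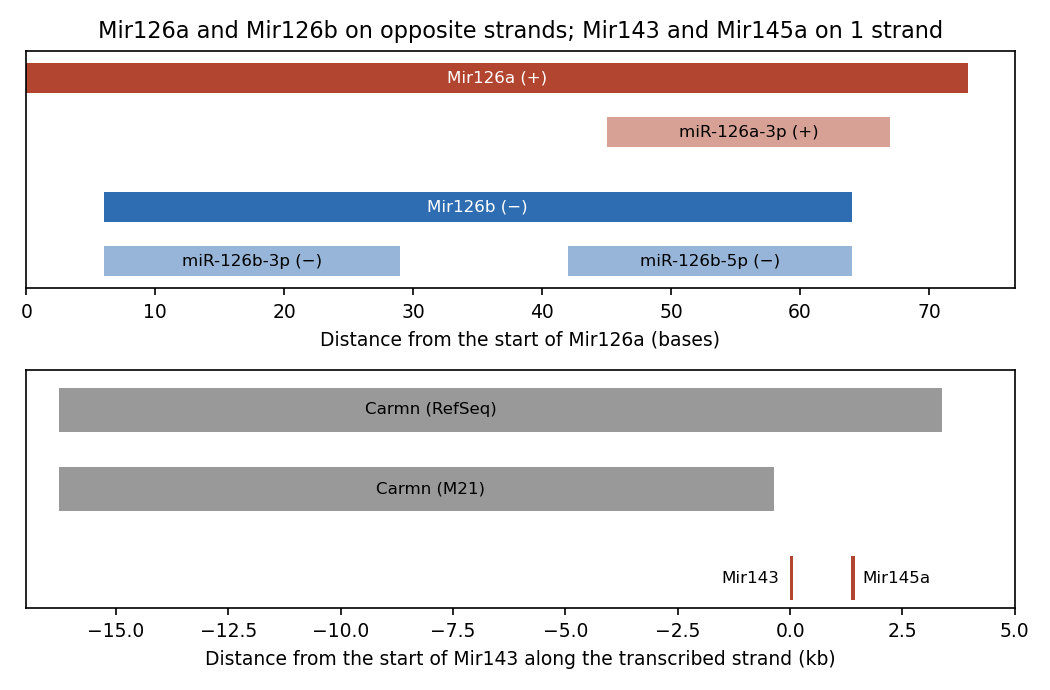
Map of the Mir126 pair in bases from the start of Mir126a (top; red plus strand, blue minus strand, pale bars the mature miRNAs) and of Mir143, Mir145a and the 2 annotated extents of Carmn in kb from the start of Mir143 (bottom). Mir126b lies wholly inside Mir126a, and Mir143 and Mir145a are 1301 bases apart.

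Of the 5 genes, 3 were detected, meaning that each library had at least 10 CPM, and 2 had 0 counts in both. Mir126a had 35427 counts (7027 CPM) in replicate 2 and 24234 counts (5706 CPM) in replicate 1. It was the most abundant of the 5, at rank 29 in replicate 2 and rank 35 in replicate 1 among all 2202 genes, with a mean of 6366.5 ± 934 CPM (SD, n = 2). Mir143 had 7790 counts (1545 CPM) in replicate 2 and 10431 counts (2456 CPM) in replicate 1, a mean of 2001 ± 644 CPM (SD, n = 2). It stood at rank 69 in replicate 2 and rank 55 in replicate 1. Mir145a had 992 counts (197 CPM) in replicate 2 and 1247 counts (294 CPM) in replicate 1, a mean of 245 ± 68.5 CPM (SD, n = 2), at rank 164 in replicate 2 and rank 144 in replicate 1. The order Mir126a, Mir143, Mir145a was the same in both libraries, and the ranges of these 3 genes did not overlap.

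**Figure D2:**
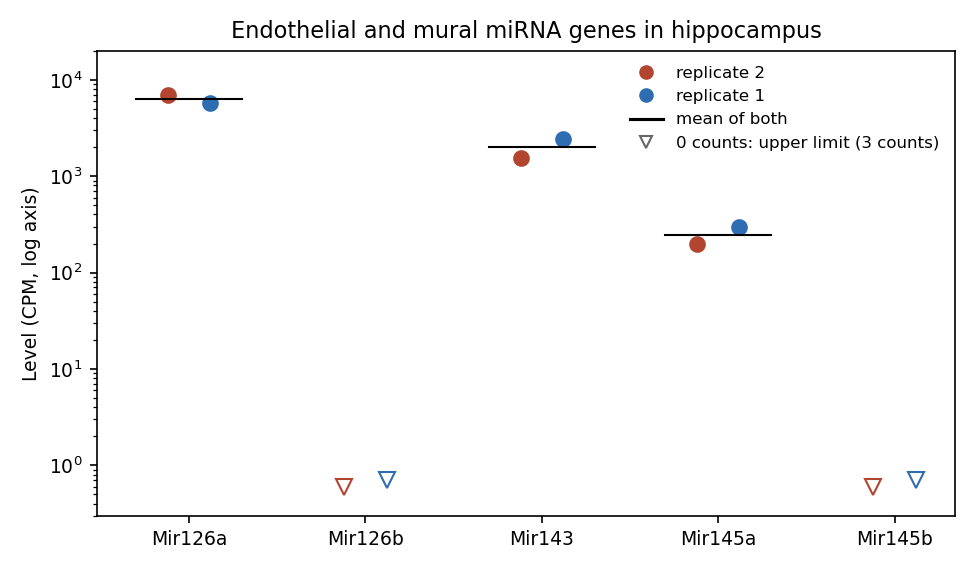
Level of each of the 5 genes in replicate 2 (red) and replicate 1 (blue), in CPM on a log axis, with the mean of both as a line. Mir126a lies between 5706 and 7027 CPM, above Mir143 and Mir145a in both libraries, and open triangles mark the upper limit that a count of 0 allows for Mir126b and Mir145b.

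Together the 5 genes held 0.877% of the miRNA counts in replicate 2 (Clopper-Pearson 95% interval 0.869 to 0.885%), and 0.846% were theirs in replicate 1 (0.837 to 0.854%). The summed level averaged 8612 ± 221 CPM (SD, n = 2), a spread smaller than that of Mir126a or Mir143 alone. Mir126a made up 80.1% of the sum in replicate 2 and 67.5% in replicate 1. Mir143 made up 17.6% and 29.0% and Mir145a 2.24% and 3.47%, in replicates 2 and 1. The sum was thus close in both libraries while the shares of the 3 genes in it differed. The tissue is a bulk sample, so fewer cells of a type and less RNA per cell cannot be told apart. Without molecular identifiers, for which the labels give no sign, intervals and limits reflect counting error alone.

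Mir126b had 0 counts in replicate 2 and 0 in replicate 1. A count of 0 allows up to 3 counts, or 0.595 CPM in replicate 2 and 0.706 CPM for replicate 1, or 0.00847% and 0.0124% of the Mir126a count. The opposite-strand column of Mir126b held 35424 counts in replicate 2 and 24233 in replicate 1. These are the reads of Mir126a: adding the 3 and 1 reads that lay on Mir126a but not on Mir126b gives the sense counts of Mir126a exactly. Mir126a itself had 0 opposite-strand counts in both libraries. Counted without regard to strand, the shared reads entered no gene, and they made up 9.55% of the 370808 reads set aside as ambiguous in replicate 2 and 9.06% of 267469 in replicate 1. That column left Mir126a with 3 and 1 counts.

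The Mir126 pair was set beside the other miRNA genes annotated over each other on opposite strands. There were 32 such pairs, and by summed count of both libraries the Mir126 pair was the third highest, after Mirlet7e with Gm25927 and Mir191 with Gm24083. In 16 pairs the higher gene had at least 1000 counts over both libraries. In 11 of these the lower gene had 0 counts, in 5 it had at least 1, and in 0 it reached 10 counts. A count of 0 was thus not particular to Mir126b among these 16 pairs. It was also common among miRNA genes in general, as 1403 of all 2202 genes (63.7%) had 0 counts in both libraries. Pairs with fewer than 1000 counts on the higher gene are not part of this comparison.

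Mir145b had 0 counts on either strand in both libraries, which puts reads aligned to 1 place at no more than 0.595 CPM in replicate 2 and at most 0.706 CPM in replicate 1. A count of 0 was common in the tables, where 1403 of 2202 genes (63.7%) had none in either library. Reads with more than 1 alignment are in no gene's count and were 45.7% of reads in replicate 2 and 43.8% in replicate 1. The Mir145a and Mir145b hairpins share a stretch of 17 bases, the longest that either shares with any other annotated hairpin outside its own locus. None of the 5 hairpins shared 20 bases with an annotated hairpin elsewhere. Copies outside annotated hairpins were not searched, so reads of these genes that aligned to several places are not known.

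The hairpins were also described by their predicted folding. RNAfold gave the Mir143 hairpin a lowest free energy of -36.9 kcal/mol over 63 bases, and 5.30% of the 302 detected hairpins had a lower value per base. Mir126a folded at -31.2 kcal/mol over 73 bases and Mir145a at -30.3 kcal/mol over 70 bases, near the middle of the detected hairpins, with 57.9% and 54.6% of them lower per base. The 2 genes without counts folded more weakly, with Mir126b at -19.3 kcal/mol over 58 bases and Mir145b at -25.1 kcal/mol over 75 bases. Of the detected hairpins, 94.4% and 94.0% had lower values per base than these. Other genes without counts were not compared, and a link between folding and counts was not tested. The share of G and C was 55.6% in Mir143, 48.6% in Mir145a and 45.2% in Mir126a.

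The spread between the libraries was examined next. Mir143 and Mir145a were lower in replicate 2 and Mir126a was higher. Mir126a had a log2 ratio of 0.30 (replicate 2 over replicate 1, exact 95% interval 0.28 to 0.32), a level 1.23 times as high in replicate 2. Mir143 had a log2 ratio of -0.67 (-0.71 to -0.63) and Mir145a of -0.58 (-0.70 to -0.46), levels 0.629 and 0.670 times those of replicate 1. An exact binomial test (two-sided) on the counts of both libraries, adjusted by Benjamini-Hochberg over the 522 genes with at least 10 counts, called all 3. The adjusted p was 3.78e-138 for Mir126a, 7.55e-212 for Mir143 and 1.58e-20 for Mir145a. The test asks whether the reads of these libraries differ and says nothing of conditions, and with so many reads it picks up small differences: 266 of 522 genes passed it at an adjusted p of 0.05 (51.0%), 147 as higher in replicate 2 (28.2%) and 119 as lower (22.8%).

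Among the 276 tested genes with at least 200 counts over both libraries, a depth that all 3 genes exceed, 80.1% passed, 43.5% as higher in replicate 2 and 36.6% as lower. Being called was therefore common from 200 counts upward. The 3 genes lie well above that minimum, and the share called at their own depth was not counted. By size, the difference of Mir126a was within the usual spread: 166 of the 302 detected genes (55.0%) had a larger absolute log2 ratio, and the median absolute log2 ratio was 0.36. Fewer genes exceeded Mir145a (92 genes, 30.5%) or Mir143 (72 genes, 23.8%). Adapter trimming followed another protocol version in each library, per the labels, and this and the replicate cannot be told apart.

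**Figure D3:**
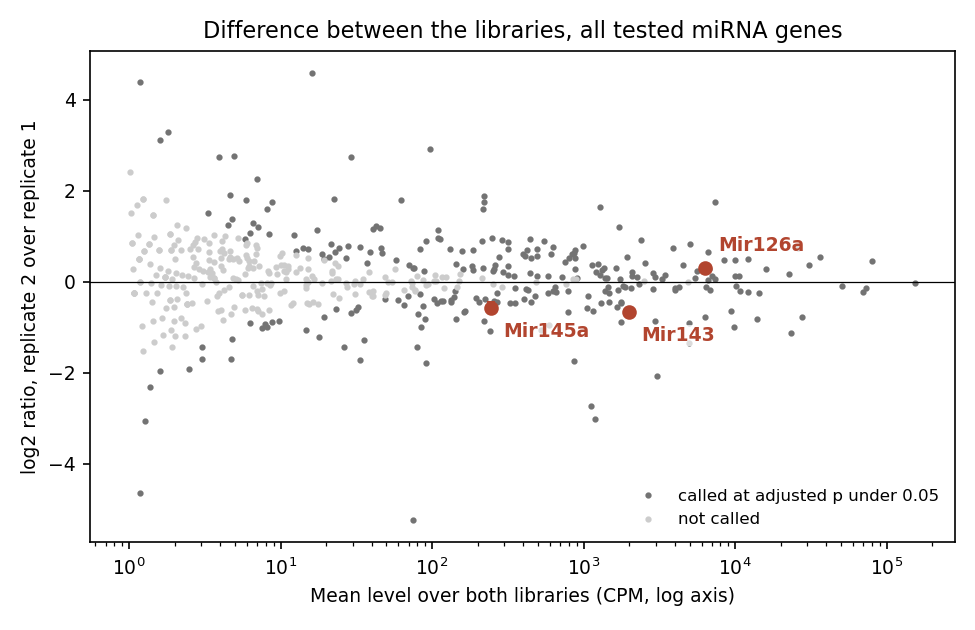
The log2 ratio of replicate 2 over replicate 1 against the mean level in CPM (log axis) for the 522 tested genes, dark where the exact binomial test called them. Mir126a (0.30) lies above the line of equal levels, and Mir143 (-0.67) and Mir145a (-0.58) lie below it, all within the cloud of other genes, with exact 95% intervals that fit inside the red points at this scale.

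Ratios of counts within a library do not depend on its scaling. Mir143 had 7.85 counts for each count of Mir145a in replicate 2 (exact 95% interval 7.35 to 8.40), against 8.36 in replicate 1 (7.89 to 8.88). The 2 intervals overlap, and the ratio averaged 8.11 ± 0.362 (SD, n = 2), so the 2 neighbours kept nearly the same proportion. Mir126a had 4.55 counts for each count of Mir143 in replicate 2 (4.44 to 4.66) and 2.32 in replicate 1 (2.27 to 2.38). Against Mir145a it had 35.7 (33.5 to 38.1) in replicate 2 and 19.4 (18.4 to 20.6) in replicate 1. In both cases the intervals of the libraries lie apart, so the reads of Mir126a relative to those of Mir143 and Mir145a differed between the libraries by more than counting error. With 2 libraries, no test of it across animals was possible. Hairpins differ in how well their reads are captured, so these ratios are of reads and not of molecules.

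**Figure D4:**
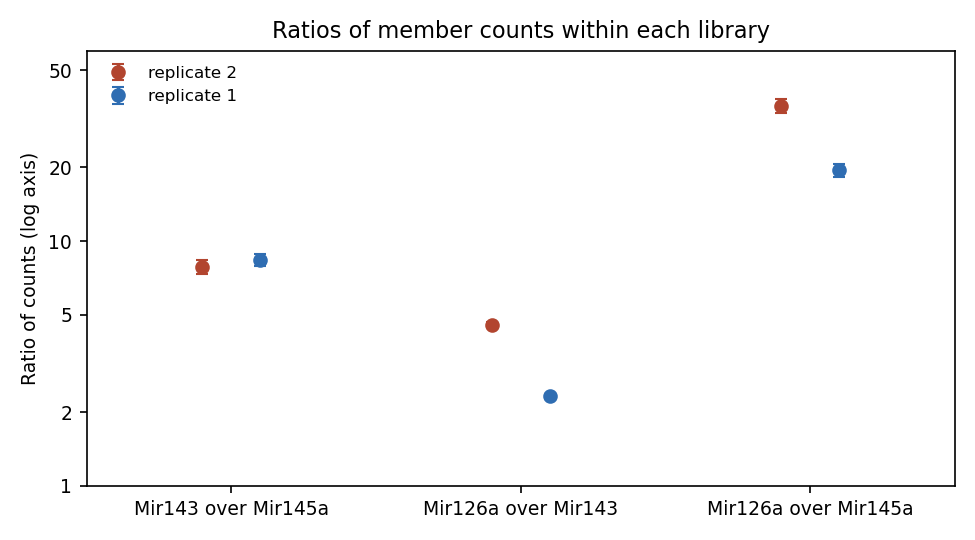
Ratio of the counts of 2 genes within replicate 2 (red) and within replicate 1 (blue), on a log axis, with exact 95% binomial intervals that are smaller than the points where no bar is seen. Mir143 over Mir145a is near 8.11 in both libraries, while both ratios with Mir126a on top are higher in replicate 2.

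The neighbours of the 3 detected genes in the order of mean CPM are close to them in mean level by the way they were picked. Overlap of their ranges therefore describes place in the order and is no test. Mir126a lay between Mir22 (6949 CPM in replicate 2 and 5798 CPM in replicate 1) and Mir100 (4669 and 7958 CPM), and its range overlapped both. Mir143 lay between Mir150, a lymphocyte miRNA (1949 and 2138 CPM), and Mir671 (2285 and 1571 CPM), and Mir145a between Mir1224 (329 and 170.2 CPM) and Mir496a (154 and 328 CPM), again with overlapping ranges.

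Likeness of pattern was measured as the Euclidean distance in log2(CPM + 1) over the 2 libraries, among the detected genes. Mir22 was nearest to Mir126a, at a distance of 0.0281, followed by Mir433 (0.13) and Mir541 (0.205). Nearest to Mir143 were Mirlet7f-2 (0.111), Mir98 (0.267) and Mir7b (0.269), and nearest to Mir145a were Mir872 (0.143), Mirlet7a-2 (0.218) and Mir369 (0.228). With 2 libraries, such likeness describes level and library difference only.

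Other miRNAs linked to vessel cells were called in both directions. Of 20 further genes that endothelial cells use, such as Mir23a, Mir23b, Mir221 and Mir222, 18 were detected. None of them is confined to endothelium, and they had a summed level of 51181 CPM in replicate 2, against 63644 CPM in replicate 1. The test called 5 as higher in replicate 2, among them Mir23b (24103 CPM in replicate 2 and 21315 CPM in replicate 1), and 10 as lower, among them Mir23a (9819 and 10571 CPM), while 5 were not called. Of all tested genes, 28.2% were called higher and 22.8% lower. Among those with at least 200 counts over both libraries, as most of this list had, the shares were 43.5% and 36.6%. The list's median log2 ratio was -0.08, beside 0.09 over all 522 tested genes. Of 7 genes linked to mesenchymal cells and fibroblasts, 4 were detected, and the list had a summed level of 8610 CPM in replicate 2, against 8900 CPM in replicate 1. Mir22 was called higher in replicate 2, Mir140, a cartilage and fibroblast miRNA, was called lower (1231 CPM in replicate 2 and 2293 CPM in replicate 1), as was Mir21a (401 and 774 CPM), and Mir214 was not called. Mir199a-1 had 0 counts in both libraries, and Mir199a-2 and Mir199b had at most 3 counts.

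Markers of other cells that the dissection could hold were set beside these results. The choroid plexus and ependyma list (5 of 8 genes detected) had a summed level of 3408 CPM in replicate 2, against 11342 CPM in replicate 1. In it, 4 of 6 tested genes were called lower in replicate 2 and 1 higher. The shares called lower and higher were 22.8% and 28.2% of all tested genes, and 36.6% and 43.5% of those with at least 200 counts. Mir143 and Mir145a were lower in replicate 2 too. So were the sums of the striated muscle, neuronal, other endothelial-linked, mesenchymal and leukocyte lists, while those of the red cell and oligodendrocyte lists were higher. The leading genes of the choroid plexus list were Mir204 (2780 CPM in replicate 2 and 7102 CPM in replicate 1) and Mir1298 (259 and 2117 CPM), and Mir449b had 0 counts. The part of choroid plexus in the lower mural levels was not tested. Striated muscle miRNAs (1 of 9 detected) had a summed level of 47.6 CPM in replicate 2, against 119.6 CPM in replicate 1, nearly all from Mir206, and 5 genes, Mir1a-2, Mir133a-1, Mir133a-2, Mir208a and Mir208b, had 0 counts in both libraries. Mir499, the next of that list, had 4.76 and 3.30 CPM.

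Blood in the vessels could carry miR-126 as well. Red cell miRNAs (1 of 4 detected) had a summed level of 25.4 CPM in replicate 2, against 20.0 CPM in replicate 1. Mir486 stood at 15.3 and 10.1 CPM and Mir451a at 6.94 and 8.71 CPM. Of 3 tested red cell genes 0 were called, beside 51.0% of all tested genes. Their counts were low, with 77 in replicate 2 and 43 in replicate 1 for Mir486, the highest of them. The microglia, leukocyte and platelet list (3 of 6 detected) had a summed level of 2627 CPM in replicate 2, against 2927 CPM in replicate 1. In it, 0 of 5 tested genes were called higher in replicate 2 and 3 were called lower. The shares called higher and lower were 28.2% and 22.8% of all tested genes, and 43.5% and 36.6% of those with at least 200 counts. The list was led by Mir150 and Mir146 (611 CPM in replicate 2 and 713 CPM in replicate 1), while Mir223, the platelet and myeloid miRNA, stood at 6.15 and 11.5 CPM. The part of blood cells in the Mir126a level was not tested. As a check on the tissue, neuronal miRNAs (6 of 9 detected) had a summed level of 30715 CPM in replicate 2, against 48371 CPM in replicate 1, led by Mir132 (14605 and 32072 CPM) and Mir128-1 (6155 and 6711 CPM). Nearly all of the gap between the 2 sums came from Mir132. Of 8 tested neuronal genes, 3 were called higher in replicate 2, 3 lower and 2 neither way, beside 28.2% higher and 22.8% lower of all tested genes. Their median log2 ratio was -0.04. The 3 loci of miR-124 had at most 8 counts each, and reads of such multi-copy miRNAs that aligned to several places are not in the counts. The oligodendrocyte list (2 of 4 detected) had a summed level of 8786 CPM in replicate 2, against 5817 CPM in replicate 1, led by Mir219a-2 (6444 and 3630 CPM) and Mir338 (2333 and 2175 CPM).

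**Figure D5:**
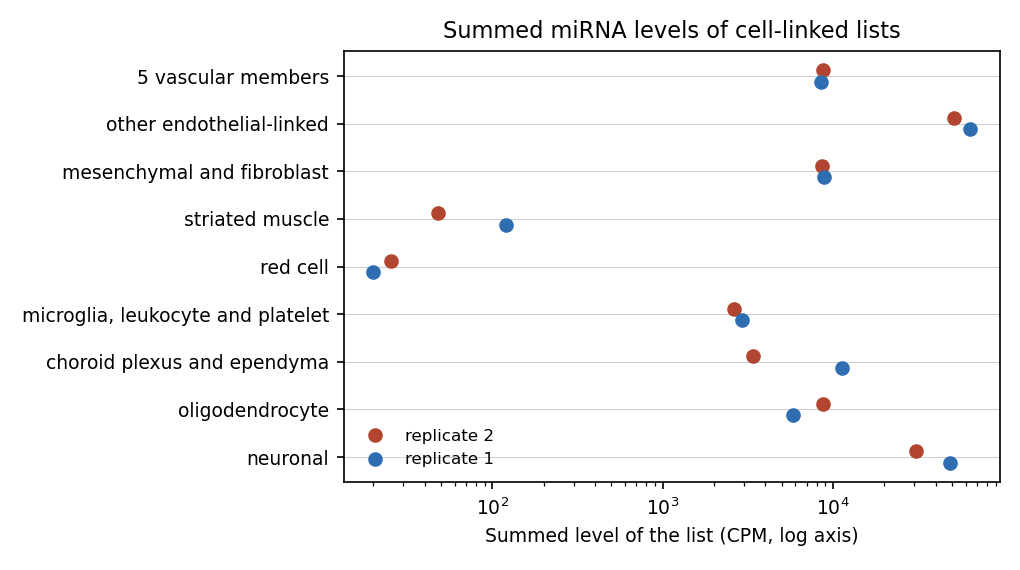
Summed level of the 5 vascular genes and of 8 other lists in replicate 2 (red) and replicate 1 (blue), in CPM on a log axis. The 5 vascular genes stand at 8769 and 8456 CPM. In both libraries this is above the leukocyte, red cell and striated muscle lists and below the other endothelial-linked and neuronal lists. The mesenchymal and choroid plexus lists are higher than the 5 genes in replicate 1 only, and the oligodendrocyte list in replicate 2 only. The choroid plexus list has the widest gap between the libraries.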

How the data were processed

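The authors deposited 1 table of raw read counts per library, with a column for either strand, one for the sense and one for the antisense strand of each gene, as judged from their sums. Per the file headers, reads were placed on mm10 with GENCODE M21. Aligner and counter: not given in the sources used here. Sense counts were used throughout. Library sizes exclude the summary rows (45.7% and 43.8% of reads aligned to several places, 11.4% and 15.1% unaligned, in replicates 2 and 1). Symbols of all 2202 genes were matched by identifier.

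The replicates form 1 group, so the quasi-likelihood test of edgeR could not be fitted. The libraries were compared with exact binomial tests over genes with a summed count of at least 10, with 0.5 counts added for log2 ratios. The procedure was tested on simulated counts with known fold changes. These held counting error only, so that test does not cover further spread between libraries. Intervals are exact (Clopper-Pearson). Python 3.11.15, scipy 1.17.1, RNAfold 2.7.2, and, for scaling alternatives, edgeR 4.0.16 (TMM) and DESeq2 1.42.0 were used.

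Named genes are the 5 genes, for each detected one the gene next above and below by mean CPM and the 3 nearest in pattern, the 3 antisense pairs with the highest summed count, and the 2 highest of each list. Other names (Mir221, Mir222, Mir21a, Mir214, Mir223 and genes at or near 0) were chosen after their values were seen. The genes and the 8 lists were chosen with earlier results of these data known, and Mir155 stands in 2 lists.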

Additional observations from a re-analysis of the deposited data

How the results depend on the processing

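Scaling by TMM or DESeq2 size factors, other minimums on summed counts (none, or 200), 1 added count, and scaling to all reads kept the direction and the call of all 3 log2 ratios. They ranged from 0.22 to 0.36 for Mir126a, -0.74 to -0.61 for Mir143 and -0.65 to -0.52 for Mir145a. TMM moved all log2 ratios by -0.07 and DESeq2 size factors by -0.08. The genes called different numbered 226 to 275 under these settings, against 266 of 522 tested genes. The lowest number, 226, came from the minimum of 200 counts, under which only 276 genes were tested. The share called was therefore higher there.

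Scaled to all reads of a table, a larger denominator by construction, the levels were 2494 CPM for Mir126a, 778 CPM for Mir143, 95.4 CPM for Mir145a and 3367 CPM for the sum of the 5 genes. Counts without regard to strand leave out reads shared with Mir126b. They put Mir126a at 0.447 CPM, the sum at 2408 CPM, the ratio of Mir126a to Mir143 at 0.000240 and that to Mir145a at 0.00191. The log2 ratio of Mir126a was then 0.99, from 3 and 1 counts, too few to be tested.

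Leaving out 1 library leaves the other one's value, with no test. At 1 CPM in place of 10, the striated muscle list had 2 genes detected, the red cell list 3 and the leukocyte list 5. No paired analysis was possible because there is 1 group. Depth limits Mir126b and Mir145b, whose 0 counts allow up to 0.595 and 0.706 CPM in replicates 2 and 1.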
